A study of Arabidopsis thaliana with 8 samples.

Results

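SAUR19 to SAUR24 are 6 short, closely related genes of the SMALL AUXIN UP RNA family that lie near each other on chromosome 5 of Arabidopsis thaliana. They were chosen by locus (AT5G18010, AT5G18020, AT5G18030, AT5G18050, AT5G18060 and AT5G18080), and every one has 1 probe on the array, so that 6 of 43603 probes and 6 of the 26704 loci with a probe are described. Transcript levels were measured on 8 single-colour Agilent arrays of whole 14-day seedlings of the Col-0 ecotype, grown on agar at 22 °C with 16 h of light and 8 h of dark. Brassinazole, which blocks the synthesis of brassinosteroid hormones, was present at 1 µM during those 14 days in both groups, controls included. The first group then received 1 µM brassinolide, a brassinosteroid, for 3 h and consists of 4 samples of bil1-1D/bzr1-1D, a dominant allele of BZR1, a transcription factor of the brassinosteroid pathway. In the second, 4 samples of the wild type received DMSO, the solvent, over the same 3 h. No array used here holds the mutant with DMSO or the wild type with brassinolide, so the contributions of genotype and hormone cannot be told apart. The 4 arrays of each group shared a slide and a scan of their own, so slide, scan and group cannot be told apart either. Whether replicates were separate cultures is not stated in the labels, and p-values thus rest on a spread between samples that may be technical.

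SAUR proteins are small and short-lived plant proteins whose transcripts are typically rapidly induced by auxin, and many of them also by brassinosteroids. Proteins of the SAUR19 subfamily bind and inhibit type 2C protein phosphatases of the D clade (PP2C.D), which otherwise remove an activating phosphate from the proton pumps of the plasma membrane (the AHA proteins). Active pumps acidify the cell wall and promote cell expansion, and raised SAUR19 levels are known for enlarged cells and longer hypocotyls. BZR1, the light-regulated factor PIF4 and the auxin response factor ARF6 are known to share many target genes, SAUR genes among them.

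All 6 probes gave far higher signals in the brassinolide-treated mutant than in the solvent-treated wild type, with fold differences from 10.8 for SAUR22 to 26.1 for SAUR21. All 6 were well above background on all 8 arrays, and for none did the groups overlap. By limma across 34188 tested probes with Benjamini-Hochberg adjustment, all 6 rose past the adjusted p threshold of 0.05, against a background of 55.4% of all tested probes called in either direction, 26.0% called higher and 24.3% whose 4 mutant arrays all lay above the 4 wild-type arrays. The median change of the 6 was 3.87 on the log2 scale, while the median of all tested probes was -0.01. A call alone is thus common in these data. The size of the change is less so, since 0.140% of tested probes were called higher by at least 8-fold, and all 6 members passed that size. That mark depends on the background correction, because with the normexp correction described below the 6 folds were 3.15 to 7.96 and none reached it. Because whole seedlings were profiled, more cells that express a gene and more RNA per cell cannot be told apart.

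The signals below are background-subtracted and detrended spot intensities in scanner units, without scaling between arrays. SAUR19, the founding member of the subfamily, read 1263, 1828, 1355 and 1549 in mutant replicates 1 to 4 and 47.6, 84.7, 139 and 108 in wild-type replicates 1 to 4. Its lowest mutant array, scaled as described next, lay 11-fold above its highest wild-type array. Of the 6 it came closest to the detection limit, as its dimmest array, wild-type replicate 1, read 3.06 times the lowest signal that was well above background on that array.

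SAUR20 read 1497, 2558, 1930 and 1831 in the mutant and 92.7, 158, 317 and 286 in the wild type. SAUR21 read 2911, 4679, 3633 and 3649 in the mutant against 113, 195, 351 and 285. In both, every mutant array was well above every wild-type array, by at least 5.74-fold for SAUR20 and 10.1-fold for SAUR21 after scaling. The gene table used for names lists SAUR21 only as a synonym of AT5G18030 and gives that symbol to another locus, AT5G01830, so the member is identified here by its locus.

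SAUR22 read 3922, 5603, 4258 and 4361 in the mutant and 407, 639, 913 and 716 in the wild type. SAUR23 read 2882, 4138, 3391 and 3536 in the mutant and 259, 351, 524 and 471 in the wild type. SAUR24, the last gene of the row, read 1162, 1632, 1292 and 1317 in the mutant against 109, 170, 258 and 199. Levels of different probes are not comparable, since each probe binds with its own efficiency, but within each of these probes the lowest mutant array exceeded the highest wild-type array by 5.21-fold, 6.67-fold and 5.46-fold after scaling.

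For the tests, each signal was divided by the 75th percentile of its array and put on a log2 scale, so that 0 is the level of the 75th percentile. On this scale SAUR21 stood at 0.10 ± 0.36 (SD, n = 4) in the mutant and -4.61 ± 0.87 (SD, n = 4) in the wild type, a limma change of 4.71 ± 0.41 (SE), or 26.1-fold, with an adjusted p of 5.4e-05. SAUR19 stood at -1.21 ± 0.28 and -5.91 ± 0.82, a change of 4.70 ± 0.38, or 25.9-fold (adjusted p 3.7e-05). These were the largest and the second largest rises of all 31614 probes that were well above background on all 8 arrays. SAUR20 went from -4.80 ± 0.97 in the wild type to -0.84 ± 0.39 in the mutant, a change of 3.96 ± 0.45, or 15.5-fold (adjusted p 2.1e-04). For SAUR23 the means were -3.77 ± 0.61 and 0.01 ± 0.29, a change of 3.79 ± 0.30, or 13.8-fold (adjusted p 3.2e-05). Both rises ranked within the first 7 of the same probes, at positions 5 and 7.

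SAUR24 had a mean of -4.91 ± 0.68 in the wild type and -1.36 ± 0.27 in the mutant (SD, n = 4 each), a limma change of 3.56 ± 0.32 (SE), or 11.8-fold, with an adjusted p of 6.4e-05. SAUR22 had -3.04 ± 0.65 and 0.39 ± 0.28, a change of 3.43 ± 0.31, or 10.8-fold (adjusted p 6.4e-05). They ranked at positions 12 and 16 by rise. When 1 array was left out at a time, all 6 kept their calls, with median changes between 3.53 and 4.13. One background correction, the normexp model fitted to spot and local background, ended the calls of SAUR19 (2.30, adjusted p 0.0527) and SAUR24 (1.66, adjusted p 0.0803) and lowered the median change to 2.42. Its fitted background was below 0 on wild-type replicates 2, 3 and 4 (-1158 at the lowest) but 7.99 on wild-type replicate 1.

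**Figure D1:**
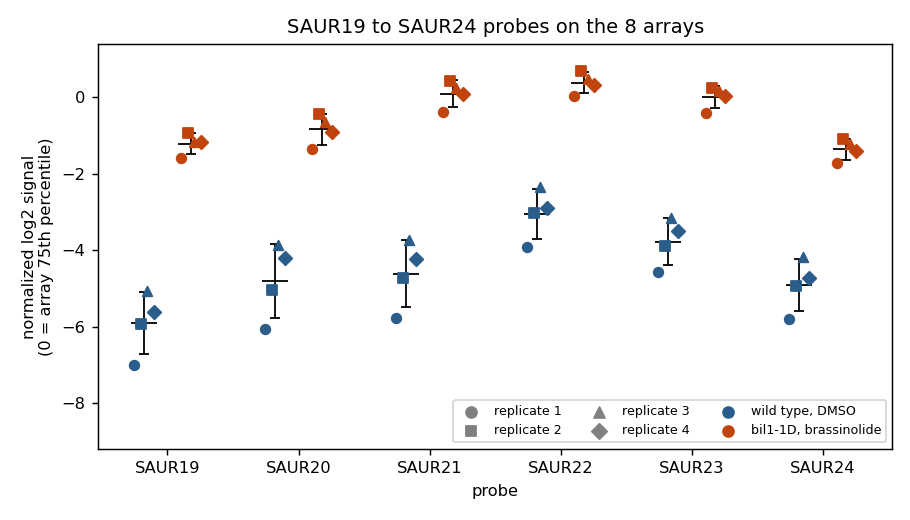
Normalized log2 signal (y axis, 0 is the array's 75th percentile) of the 6 probes (x axis) on each array, with marker shapes for replicates 1 to 4; horizontal bars are group means and whiskers are SDs (n = 4). The 4 mutant arrays lay above the 4 wild-type arrays for every probe, and wild-type replicate 1 was the lowest and replicate 3 the highest wild-type array for every probe.

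Within the wild type the 6 probes moved up and down together from array to array. Replicate 1 was lowest, then replicates 2 and 4, and replicate 3 highest, for all 6 probes. Replicate 3 exceeded replicate 1 by 3.88-fold for SAUR19, 4.53-fold for SAUR20, 4.12-fold for SAUR21, 2.98-fold for SAUR22, 2.69-fold for SAUR23 and 3.13-fold for SAUR24. In the unscaled signals the same pair of arrays differed by 2.03-fold to 3.42-fold in the same order. The wild-type SD of the 6 probes, 0.61 to 0.97, exceeded that of 98.6% to 99.7% of the 31614 probes well above background on all arrays, whose median SD was 0.12.

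In the mutant the spread was smaller. SDs ran from 0.27 to 0.39, above those of 90.6% to 95.9% of the same probes, whose median was 0.10. Mutant replicate 1 was lowest and replicate 2 highest for all 6 probes, which differed by 1.55-fold for SAUR24 to 1.89-fold for SAUR20. Replicates 4 and 3 lay between them in that order for 5 probes, and only SAUR19 had them the other way, at -1.16 on both arrays to 2 decimals.

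Most of the spread within a group was shared by the 6 probes. The median of the 6 on each array had an SD of 0.34 in the mutant and 0.86 in the wild type. After that median was subtracted, the SDs of single probes were 0.02 to 0.10 in the mutant and 0.05 to 0.27 in the wild type. The median was taken from the same 6 probes, which by itself lowers these SDs in part. The wild-type order of arrays was also found in 3167 of the 31614 probes and in 17 of 61 other SAUR probes (27.9%). Both orders at once, as in 5 of the 6 members, occurred in 0.924% of all probes and in 7 of the 61 other SAUR probes. Wild-type replicate 1 had the highest 75th percentile of its group (6153) and replicate 3 the lowest (4638), and the summed level of 6 shoot marker genes was also lowest in replicate 1 (324 times the 75th percentile) and highest in replicate 3 (410 times). The part of these differences in the spread of the SAUR probes was not tested.

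**Figure D2:**
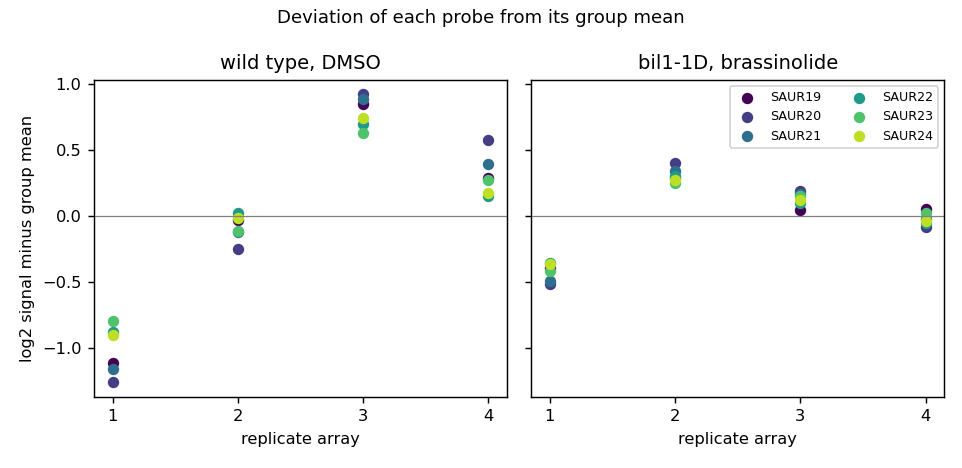
Deviation of each probe from its group mean (y axis, log2) on replicates 1 to 4 (x axis) of the wild type (left) and the mutant (right), with 1 colour per gene. Wild-type replicate 1 lay lowest and replicate 3 highest for all 6 probes, and the mutant deviations were smaller.

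The 6 changes were not of equal size. Differences of change between members were tested for all 15 pairs by exact two-sided permutation of the arrays, where the smallest p that 4 against 4 arrays allow is 0.0286, with Benjamini-Hochberg adjustment over the pairs. In 11 pairs the difference reached that smallest p (adjusted p 0.039). The adjusted value depends on how many pairs reach the smallest p, and pairs share probes, so these calls are not independent. SAUR19 and SAUR21 formed the upper end. SAUR21 rose 2.42 times as much as SAUR22 (a log2 difference of 1.27), 2.22 times as much as SAUR24, 1.89 times as much as SAUR23 and 1.68 times as much as SAUR20. SAUR19 rose 2.40, 2.20, 1.88 and 1.67 times as much as the same genes. Between SAUR19 and SAUR21 the log2 difference was -0.01 (adjusted p 0.83 by the exact permutation test).

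At the lower end, SAUR23 rose 1.28 times as much as SAUR22 and 1.17 times as much as SAUR24, and SAUR24 rose 1.09 times as much as SAUR22, all with an adjusted p of 0.039 by the exact permutation test. SAUR20 did not pass against any of these, with log2 differences of 0.52 from SAUR22 (adjusted p 0.0714), 0.40 from SAUR24 (adjusted p 0.0989) and 0.17 from SAUR23 (adjusted p 0.49), again exact permutation values. With normexp 8 pairs reached the smallest p, and with fewer such pairs their adjusted p was 0.0536, so none passed the threshold. Some differences kept their size there, such as SAUR21 minus SAUR24 (1.34) and SAUR20 minus SAUR21 (-0.74). Others turned, namely SAUR19 minus SAUR22 (-0.32), SAUR19 minus SAUR23 (-0.22), SAUR22 minus SAUR23 (0.10) and SAUR22 minus SAUR24 (0.97). SAUR22 minus SAUR24 also turned with normexp on negative controls (0.068) and was not called in the authors' deposited table, so the order of these 2 depends on the processing. A difference in measured change between probes of such close copies can hold a share of each other's signal. The probe sequences were not used here, and how far transcripts of 1 member bound to another member's probe was not tested, so the 6 values may not be independent of each other.

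None of the tested genes that lie among the 6 was called, except AT5G18065 under normexp (-1.18, adjusted p 0.0297). In chromosome order the members are interrupted by 4 further protein-coding genes. AT5G18040, also named HEAT-INDUCED TAS1 TARGET 2, lies between SAUR21 and SAUR22 and had a log2 change of -0.06 ± 0.12 (SE, adjusted p 0.68 by limma). AT5G18065, HEAT-INDUCED TAS1 TARGET 3, lies just after SAUR23 and had -0.17 ± 0.10 (adjusted p 0.18). DRT101, named for DNA damage repair and toleration, lies just before SAUR24 and had 0.08 ± 0.07 (adjusted p 0.34). These 3 probes were well above background on all 8 arrays, and in each the groups overlapped. The remaining gene, AT5G18037, and the nearest protein-coding genes outside the row, VDD and AT5G18090, were not well above background on all arrays of either group and were not tested.

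**Figure D3:**
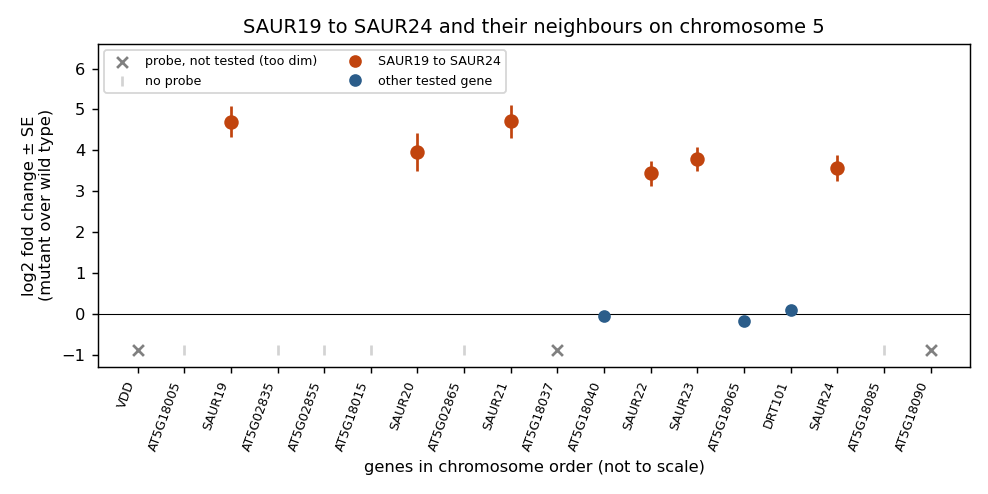
Limma log2 change with its SE (y axis) of the genes from VDD to AT5G18090 in chromosome order (x axis, not to scale); crosses are genes whose probes were too dim to test and ticks are genes with no probe. The 6 SAUR genes lay between 3.43 and 4.71, and the 3 tested neighbours between -0.17 and 0.08.

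Of the other loci that carry a SAUR symbol in the gene table, 74 had a probe on the array. Of their 81 probes, 68 were tested. Of these, 40 rose, 11 fell and 17 did not pass, with a median change of 0.70, against 26.0% of all tested probes called higher and 29.5% called lower. AT5G01830 is in this list only through the symbol SAUR21 that the gene table gives it, and whether it is a SAUR gene was not checked. Its probe (-0.75, adjusted p 0.0023 by limma) is counted among the 11 falls, and it belongs to every count of other SAUR probes given here. A rise of at least 8-fold was called for 13 probes, and 10 had a change above that of SAUR22, the lowest member. Of these 10, the probes of SAUR68, SAUR61 and SAUR27 were not detected on every wild-type array, so the sizes of their changes are uncertain. The largest rises among probes detected on all 8 arrays were those of SAUR9 (4.26 ± 0.15, adjusted p 8.2e-07) and SAUR65 (4.12 ± 0.43, adjusted p 1.4e-04) by limma. SAUR68 (AT1G29490) was also called higher (adjusted p 2.3e-05), but it was detected on a single wild-type array (1 of 4) and its lowest wild-type values lay at the floor of the scale, so no size is given, and the call was lost with normexp. SAUR65 belongs to a separate cluster of SAUR genes on chromosome 1, known for roles in hypocotyl and filament elongation. Of the falls, SAUR36, a gene linked to leaf senescence, had -2.15 ± 0.08 (adjusted p 9.6e-07) and SAUR77 had -1.71 ± 0.13 (adjusted p 3.4e-05). SAUR34 was undetected above background in all 4 mutant samples and was at least 1.73-fold lower there (adjusted p 4.8e-05). With normexp, 19 of these probes were called higher.

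**Figure D4:**
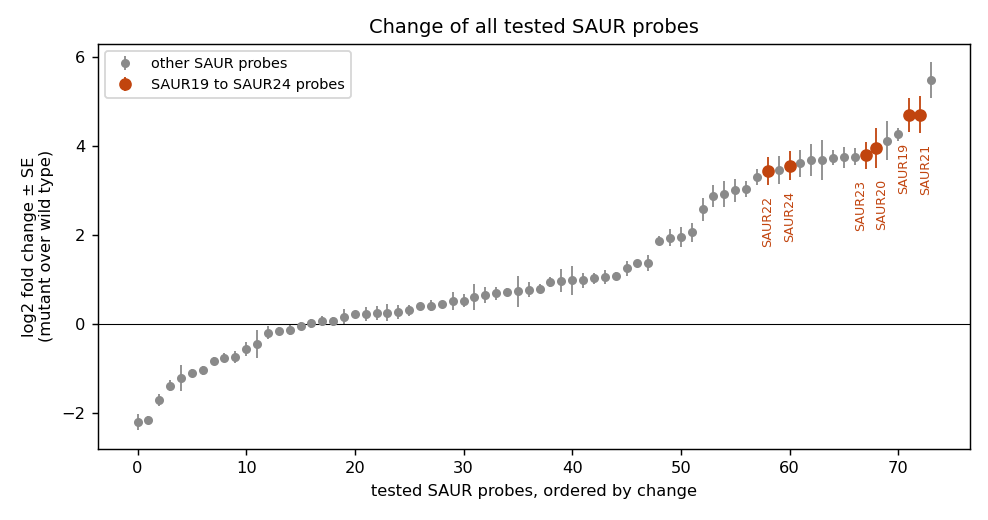
Limma log2 change with its SE (y axis) of all tested SAUR probes, ordered by change (x axis), with the 6 members in orange. The other probes include that of AT5G01830, listed only through its symbol in the gene table. The members lay between 3.43 and 4.71, while the other probes detected on all 8 arrays ran from -2.15 to 4.26. The lowest and the highest point, SAUR34 and SAUR68, were undetected on some or all arrays of a group, and their plotted sizes depend on the floor or on background signal.

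Outside the cluster, the loci whose pattern over the 8 arrays was nearest to the median pattern of the 6 were mostly other SAUR genes. Nearness was the root mean square difference of log2 signals after centring each probe on its own mean, over 20962 other loci well above background on all arrays. SAUR64 had the smallest difference (0.13), then SAUR65 (0.18), SAUR29 (0.22), KDR (0.28) and SAUR15 (0.30), while the median locus had 1.98 and the members themselves had 0.12 to 0.41. KDR, or KIDARI, encodes a small helix-loop-helix protein without a DNA-binding basic region, known from light and growth responses, and rose by 3.47 ± 0.30 (adjusted p 5.1e-05 by limma). Because centring was over all 8 arrays, this measure mostly reflects the size of the change between the groups. The nearest loci had changes of 3.46 to 4.12, beside the member median of 3.87, and likeness within a group was not measured separately. These nearest loci were picked for this likeness, so their likeness is a description.

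For the phosphatases and pumps that SAUR proteins act on, a gene is given here by its brightest tested probe. By this measure, 29.7% of all genes with a tested probe were called higher and 25.4% lower. Of 9 PP2C.D phosphatase genes, 4 rose and 1 fell, with a median of 0.26, and none rose under spike-in scaling. The rises were PP2C.D5 (0.45 ± 0.09, adjusted p 0.0038), PP2C.D9 (0.45 ± 0.07, adjusted p 8.3e-04), PP2C.D4 (0.28 ± 0.06, adjusted p 0.0062) and PP2C.D3 (0.28, adjusted p 0.017). PP2C.D7 was the exception in size, with a fall of -3.08 ± 0.12, or 8.43-fold (adjusted p 1.3e-06). Further probes disagreed with the brightest one for PP2C.D5 (0.07 and 0.25, neither past the threshold) and for PP2C.D3 (0.01). For PP2C.D6 the brightest probe did not pass (-0.14, adjusted p 0.074), while its other probe fell (-0.58 ± 0.09, adjusted p 9.4e-04).

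Of 11 AHA genes, which encode the proton pumps of the plasma membrane, 10 were tested. None was called higher, 3 were called lower and 7 did not pass, although 1 gene was called higher under quantile scaling and in the authors' deposited table (AHA2) and 1 under normexp with negative controls (AHA9). AHA1, with AHA2 one of the main pumps of seedlings, had -0.69 ± 0.06 (adjusted p 3.7e-05), AHA5 had -0.78 ± 0.06 (adjusted p 3.9e-05) and AHA3 had -0.27 ± 0.06 (adjusted p 0.0064). The 2 probes of AHA2 disagreed, with 0.01 (adjusted p 0.91) for the brighter and -1.05 ± 0.06 for the other. The lower calls of AHA genes were at most 1.72-fold by the brightest probe and 2.08-fold by any probe, against at least 10.8-fold for the 6 SAUR genes.

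All 8 transcription factor genes looked up as known regulators of SAUR genes passed the threshold, 4 up and 4 down, where 29.7% and 25.4% of all genes did. PIF4 rose by 1.27 ± 0.17 (adjusted p 4.3e-04), BES1, the close relative of BZR1, by 1.26 ± 0.09 (adjusted p 2.4e-05), BZR1 itself by 0.57 ± 0.05 (adjusted p 7.7e-05) and ARF7 by 0.28. Under spike-in scaling 2 of the 4 rises (PIF4 and BES1) and 3 of the 4 falls (ARF6, ARF8 and PIF5) held. The other probe of ARF7 had 0.07 and did not pass. The BZR1 probe reads transcript level and does not check the bil1-1D allele, which alters the protein. ARF6 and ARF8 fell by 1.12 ± 0.07 (adjusted p 9.4e-06) and 0.90 ± 0.10 (adjusted p 1.6e-04) on the log2 scale, PIF5 by 0.41 ± 0.06 (adjusted p 6.2e-04) and PIF3 by 0.34. Further probes passed in the same direction with other sizes. They had -1.21 for PIF5, -0.59 for PIF3, 1.30 and 2.38 for BES1 and 0.62 for BZR1. All of these changes were below those of the 6 members.

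Pairs of arrays correlated at 0.991 to 0.997 across probes inside a group, and at 0.970 to 0.978 across the groups. The 75th percentile of the signal was 3033 to 3821 in the mutant and 4638 to 6153 in the wild type, and 74.5% to 75.8% of probes against 79.5% to 80.6% were well above background. The scanner software marked 3 arrays for evaluation, mutant replicate 4 and wild-type replicates 1 and 2, and without them the 6 members had changes of 3.03 to 4.11, with adjusted p values up to 0.00301 by limma. All 6 shoot markers and all 7 root markers were detected on every array, with summed shoot levels of 360 to 417 times the 75th percentile in the mutant and 324 to 410 in the wild type. Summed root levels were 27.2 to 33.0 and 34.0 to 42.2, without overlap. Single markers were mixed. By limma, 1 of the 7 root markers was called higher, 2 were called lower and 4 did not pass, with log2 changes from -0.48 to 1.20. Of the 6 shoot markers, 2 were called higher, 2 lower and 2 did not pass. The part of these marker differences in the SAUR changes was not tested. Of the seed and pollen markers, 1 of 3 each was detected on every array, while SESA3 (seed) and DAF1 (pollen) were detected on none. Both tested seed markers were called higher (0.75 and 0.77), and summed seed levels were 0.0188 to 0.0208 times the 75th percentile in the mutant and 0.0109 to 0.0153 in the wild type, without overlap. The part of this in the SAUR changes was not tested either.

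**Figure D5:**
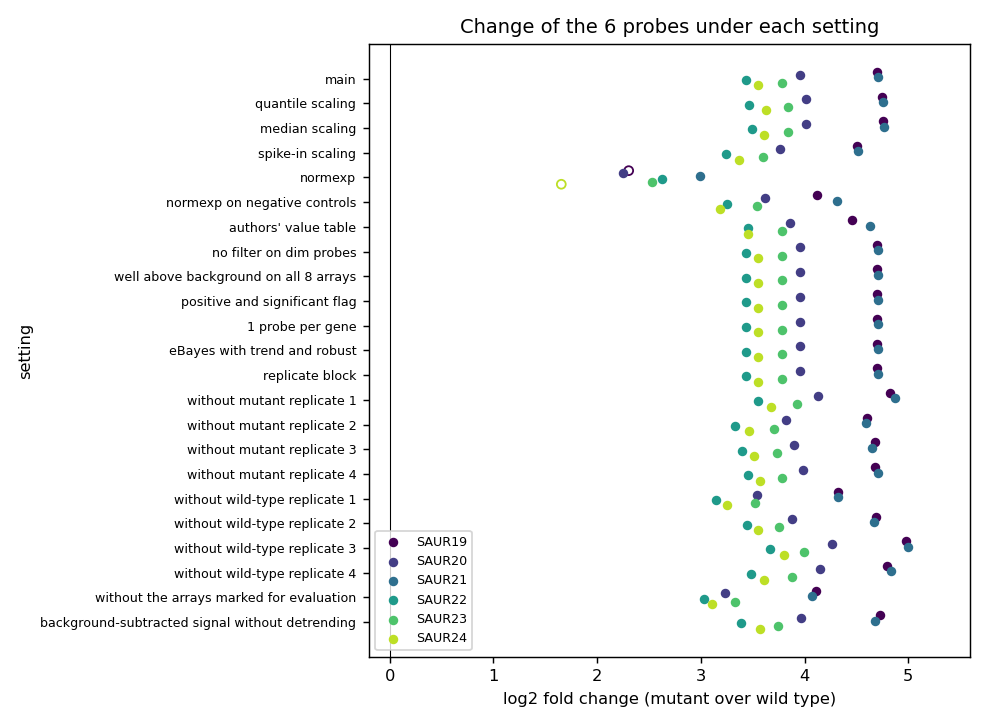
Log2 change of the 6 probes (x axis) under the main processing and each alternative (y axis), with 1 colour per gene; open circles are values whose adjusted p was above 0.05. All changes were above 0, from 1.66 for SAUR24 with normexp to 5.002 for SAUR21 without wild-type replicate 3, and the 2 open circles were SAUR19 and SAUR24 with normexp.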

How the data were processed

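Total RNA (200 ng) was labelled with Cy3, per the labels' protocols. The deposited spot intensities are on a linear scale, background-subtracted and detrended by Agilent Feature Extraction, and per the file headers were not scaled between arrays. Version 11.5.1.1 is named in the headers and 9.1.3.1 in the submitters' processing notes. The authors' deposited value table is taken to hold natural log values, because regressing it on ln of the processed signal gave slopes of 0.957 to 0.997. All its columns share the same sorted values (median -0.970), so its direction and quantile scaling are known while its centring and log base stay inferred. It was used as an alternative.

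Outlier spots (93 over all arrays) were left out, 0 were saturated, and spots of a probe were averaged. Probes were named through the TAIR10.1 RefSeq gene table, where 36145 matched 1 locus and 7458 none. Signals were scaled to the 75th percentile of non-control probes on each array, floored at 0.001 and put on a log2 scale. A probe was tested if the scanner flag called it well above background in every sample of either group. The comparison used lmFit and eBayes of limma 3.58.1 (R 4.3.3), with a threshold of 0.05. Python 3.11.15 with scipy 1.17.1 did the rest. The fit was tested on simulated data. The fold bound for a probe below background in 1 group divides the mean of the brighter group by a dim-group mean in which each array counts with its detection limit or the probe's own signal, whichever is higher.

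The members, gene lists and tests were chosen with earlier results of these data known. Genes were named by rule: the 6 members, their neighbours, up to 3 rises and 3 falls per list, and the 5 loci nearest in profile; PP2C.D3, PP2C.D6, AHA2, AHA9, AHA11, ARF7, PIF3, SAUR27, SAUR61 and further probes were added after their values were seen. The alternatives were quantile, median and spike-in scaling, normexp with an offset of 50 on median spot and local background signals or on negative controls, the authors' table, other filters and detection flags, 1 probe per gene, eBayes with trend and robust, a replicate block, and leaving out arrays. The signal without detrending was added after seeing the data. Genome coordinates and sequences were not used here. The number of arrays limits the precision. Replicate numbers are the labels'. The correlation of deviations between same-numbered arrays was -0.04, -0.19, 0.19 and 0.05 for replicates 1 to 4, so the numbers were not taken to pair the samples.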

Additional observations from a re-analysis of the deposited data

Results flagged for a closer look

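In 72 groups of 4 arrays examined for a single array that stands apart by Dixon's criterion, 2 did, and chance alone marks about 1 in 20 such groups. The PP2C.D5 probe read 1.43 on the log2 scale in wild-type replicate 3, while the other wild-type arrays lay between 1.06 and 1.12. A probe of VDD read -8.46 in mutant replicate 4, while the lowest mutant array read -9.77, and this probe was not well above background on any array. No SAUR19 to SAUR24 probe had such an array in either group.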

How the results depend on the processing

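All 6 members kept their direction in every alternative run, and their calls in all but normexp. Normexp lowered the median change to 2.42 and ended the calls of SAUR19 (2.30, adjusted p 0.0527) and SAUR24 (1.66, adjusted p 0.0803); it left 19 other SAUR probes called higher and 0 of the 15 member pairs, and turned SAUR19 minus SAUR22 to -0.32, SAUR19 minus SAUR23 to -0.22, SAUR22 minus SAUR23 to 0.10 and SAUR22 minus SAUR24 to 0.97. Normexp with negative controls turned the last to 0.068. The background fitted by normexp without negative controls was below 0 on wild-type replicates 2, 3 and 4 (-1158 at the lowest). On wild-type replicate 1 it was 7.99. The part of this fit in these values was not tested. Spike-in scaling shifted the median of all probes by -0.19, left 0 PP2C.D genes and 2 regulators called higher and 3 regulators lower, and gave 9005 calls against 18950, of which 19.5% were higher against 46.8%. Both scalings subtract 1 value per array, so the changes of all probes above the floor shift by the same amount. The SEs changed as well, so a lost call does not rest on this shift alone. For AHA3 the SE rose from 0.06 to 0.20 under spike-in scaling, and its call was lost although its fall grew from -0.27 to -0.46. For PP2C.D9 the SE rose from 0.07 to 0.22, while for SAUR19 it fell from 0.38 to 0.25. The members had changes of 3.24 to 4.52 under spike-in scaling. The share called higher was 34.1% with normexp and 59.7% with negative controls. The AHA genes called higher numbered 1 under quantile scaling, negative controls and the authors' table. Leaving out each array gave median changes of 3.53 to 4.13, 6 calls each time, 38 to 41 other SAUR probes higher, and 1 to 2 PP2C.D genes lower, with 2 (PP2C.D6 added) without wild-type replicate 2. Calls over all probes fell to 13325 without the arrays marked for evaluation. With the replicate number as a block there were 17754 calls, all 6 members among them (highest adjusted p 0.0011), 39 other SAUR probes higher and 12 lower (40 and 11 without it) and 4 AHA genes lower (3 without it, AHA11 added). It changed no call of a single gene named by rule. The slide could not be fitted as a block. Among single genes named, SAUR68 lost its call with normexp, and PP2C.D5, PP2C.D9, PP2C.D4, PP2C.D3, AHA3, BZR1, ARF7 and PIF3 with spike-in scaling. AHA3 also lost it with normexp and PP2C.D5 without the marked arrays. AT5G18065 was called lower with normexp (-1.18, adjusted p 0.0297). SAUR22 minus SAUR24 was not called with the authors' table. The dimmest member value, SAUR19 in wild-type replicate 1, sat 3.06-fold above the detection limit.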
